A study of Mus musculus with 6 samples.

Results

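RAB GTPases are small membrane-bound switches of vesicle traffic, and their genes were compared here between 2 mouse cell lines. The members were all rows of the deposited table that are annotated as protein-coding and carry a symbol made of Rab, a number and at most 1 letter from a to d. That rule took 59 of the 47729 genes in the table, and it used no measured value. The lines were 4T1 and 4TO7, both labelled as coming from a spontaneous tumor of BALB/c mice, with 3 RNA libraries each. As background, both are mammary carcinoma lines that share one parental tumour, and 4T1 is known to form overt metastases where 4TO7 mostly does not. Both were grown untreated in DMEM with 10% fetal bovine serum, and no allele or agent is given for either. Each group is 1 cell line, so a difference is one between these lines. The triplicates are not described as independent cultures, so the p-values reflect the spread between these libraries, which may be technical.

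A RAB protein is loaded with GTP by an exchange factor, recruits effectors such as tethers and motors to its membrane, and is turned off by a GTPase-activating protein. It is carried through the cytosol by a GDP dissociation inhibitor and held in the membrane by prenyl groups that an escort protein presents to a geranylgeranyl transferase. Different RABs mark different compartments, among them the endoplasmic reticulum and Golgi, early, recycling and late endosomes, lysosomes, secretory granules and the base of the cilium. In mammary epithelium the recycling RABs are best known for carrying receptors, integrins and junction proteins back to the cell surface.

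The libraries held 33605566 to 39072639 reads assigned to genes. Across genes, log2 values correlated at r = 0.988 to 0.99 among 4T1 libraries, at 0.978 to 0.993 among 4TO7 libraries and at 0.809 to 0.848 between the lines. On the second principal component 4TO7 replicate 2 stood apart at 52.2, against -20.0 and -27.5 for 4TO7 replicates 1 and 3, and the members whose call changes without it are named beside the counts. All 6 epithelial markers passed the test as higher in 4T1, and their summed value was 184479 to 206994 in 4T1 against 25834.5 to 42469.8 in 4TO7. In 4TO7 the keratins Krt8 and Krt18 averaged 21578 and 13535, while Cdh1, Epcam, Krt7 and Krt19 averaged 169.7, 23.7, 13.6 and 1.29, so that Krt19 reached the filter on low values through 4T1 alone. Of the other lineages, the fibroblast markers summed to 589.9 to 1372 in 4T1 and 1721 to 7522 in 4TO7, nearly all of it Pdgfra. Both tested fibroblast markers were called higher in 4TO7, Pdgfra with a log2 fold change of -2.38 and Pdgfrb with -1.84, while Dcn averaged 1.97 in 4T1 and 15.3 in 4TO7, Col1a1 10.2 in 4T1 and 4.19 in 4TO7, and Col1a2 at most 1.01, with Lum at 0 reads. Endothelial markers summed to at most 18.2 in any library, leukocyte markers to at most 4.98 and melanocyte markers to at most 32.8. In bulk RNA a lower value can mean fewer cells that express a gene or less of its RNA per cell, and these cannot be told apart.

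Together the 59 RAB genes took overlapping shares of the reads in both lines. Their normalised read counts summed to 131571 ± 2132 in 4T1 and 123792 ± 1619 in 4TO7 (SD, n = 3 each), which was 0.342 to 0.353% of the 4T1 libraries and 0.352 to 0.364% of the 4TO7 libraries. Levels can be set against each other between genes only per length. By mean value per kb of exon the most abundant member in both lines was Rab2a, which acts between endoplasmic reticulum and Golgi. It held 4466 ± 158 per kb in 4T1 and 3459 ± 155 per kb in 4TO7. In single libraries Rab5c lay above it in 4T1 replicate 1 (4393 against 4339 per kb) and Rab7 in 4TO7 replicate 2 (3684 against 3330 per kb). Of the 10 members with the highest value per kb, 9 were shared between the lines, and these were Rab2a, Rab5c, Rab7, Rab1a, Rab10, Rab1b, Rab31, Rab6a and Rab34. The tenth was Rab11a in 4T1 and Rab9 in 4TO7. At the other end, Rab38, Rab39 and Rab9b had 0 reads in all 6 libraries, and 8 further members (Rab33a, Rab39b, Rab40b, Rab42, Rab26, Rab37, Rab3b and Rab3c) averaged at most 13.4 in either line.

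**Figure D1:**
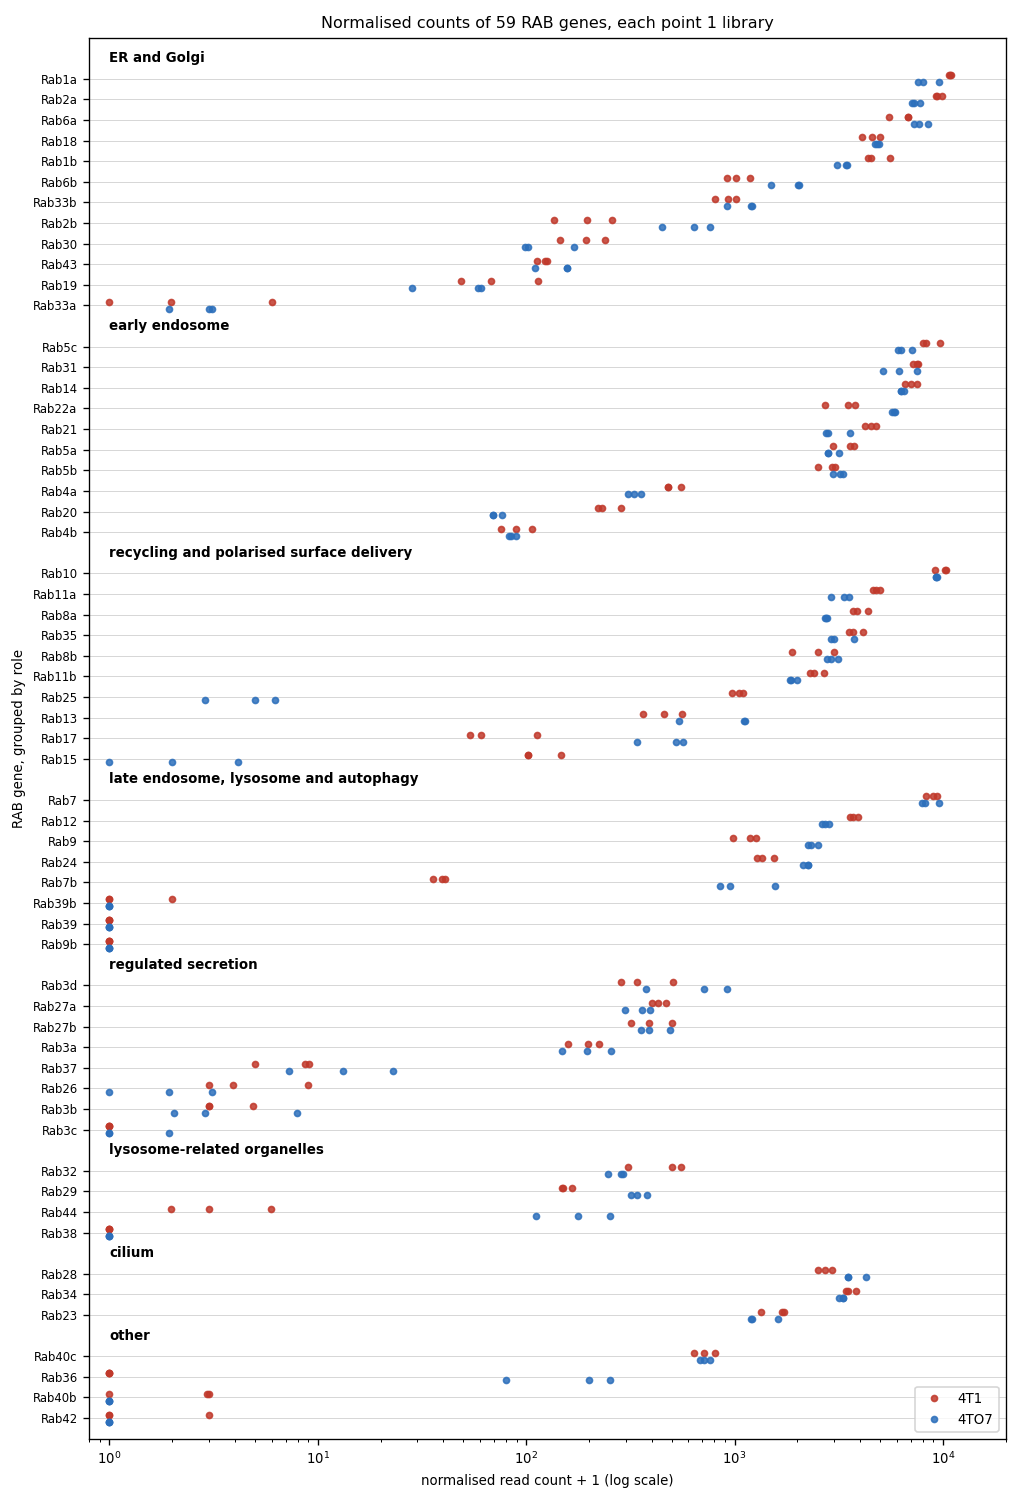
Normalised read counts plus 1 (log axis) of the 59 RAB genes, grouped by the role of the protein; each point is 1 library, 4T1 in red above 4TO7 in blue. Most members lie at similar values in both lines, while Rab25 and Rab15 lie far to the right in 4T1 and Rab7b, Rab36, Rab44 and Rab17 far to the right in 4TO7.

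After the filter on low values (10 or more normalised reads in 3 or more of the 6 libraries) 48 members were tested and 11 were not. With limma on log2(value + 1), at a Benjamini-Hochberg adjusted p under 0.05 over all 14276 genes tested, 13 RAB genes were higher in 4T1, 12 were higher in 4TO7 and 23 did not pass. The same threshold called 25.1% of all genes tested as higher in 4T1 and 23.9% as higher in 4TO7, together 49.0%, so the share of RAB genes called (52.1% of those tested) was near that of genes in general. Among protein-coding genes alone it called 27.0% as higher in 4T1 and 24.5% as higher in 4TO7, together 51.5%. The tested RAB genes had a median log2 fold change, 4T1 minus 4TO7, of 0.08 against 0.03 over all genes, and their median size of change was 0.46 against 0.57. A change of at least 2-fold was fitted for 3 of the members called higher in 4T1 (Rab25, Rab15 and Rab20) and for 7 of those called higher in 4TO7 (Rab7b, Rab36, Rab44, Rab17, Rab2b, Rab29 and Rab9), where 13.3% and 14.2% of all genes tested passed in the same way. The other 10 calls in 4T1 were small, at 0.37 to 0.60 on the log2 scale. No overlap between the libraries of the lines was seen for 17 members with 4T1 above and 12 with 4TO7 above, against 29.8% and 28.7% of all genes tested. The members without overlap that did not pass were Rab6a, Rab34, Rab14, Rab32 and Rab27a. Among the 23 that did not pass, the largest change was 0.78 on the log2 scale. Rab25, Rab15, Rab36 and Rab44 reached the filter through 1 line alone, so that they had to differ.

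The balance of small calls depended on scaling. With an equal total per library, which moved the median log2 fold change of all genes by -0.13, 6 members were called higher in 4T1 and 13 higher in 4TO7. Without 4TO7 replicate 2 the counts were 14 and 13. In that fit with limma Rab11b (adjusted p = 0.0584) and Rab5c (adjusted p = 0.0563) lost their calls. Rab31 (adjusted p = 0.0336), Rab35 (adjusted p = 0.044) and Rab32 (adjusted p = 0.0493) were then called higher in 4T1, and Rab3d (adjusted p = 0.0051) higher in 4TO7. Calls in 4T1 fell to 8 without 4T1 replicate 3, to 7 without 4TO7 replicate 1 and to 6 without 4TO7 replicate 3. Among the 4TO7 libraries, replicate 2 lay lowest in 11 of the 12 members called higher in 4TO7 and highest in 6 of the 13 called higher in 4T1. Of the 25 calls 15 held under all 17 alternatives: Rab25, Rab15, Rab20, Rab11a and Rab8a in 4T1, and Rab7b, Rab36, Rab44, Rab17, Rab2b, Rab29, Rab9, Rab22a, Rab24 and Rab6b in 4TO7. Among these, Rab25, Rab15, Rab36 and Rab44 had to differ, having reached the filter through 1 line alone, so that their calls holding adds no support. Rab11b and Rab5c each lost the call under 12 alternatives, Rab1a under 11, Rab2a under 8, Rab4a and Rab13 under 4, Rab12 and Rab28 under 3, and Rab1b and Rab21 under 2.

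**Figure D2:**
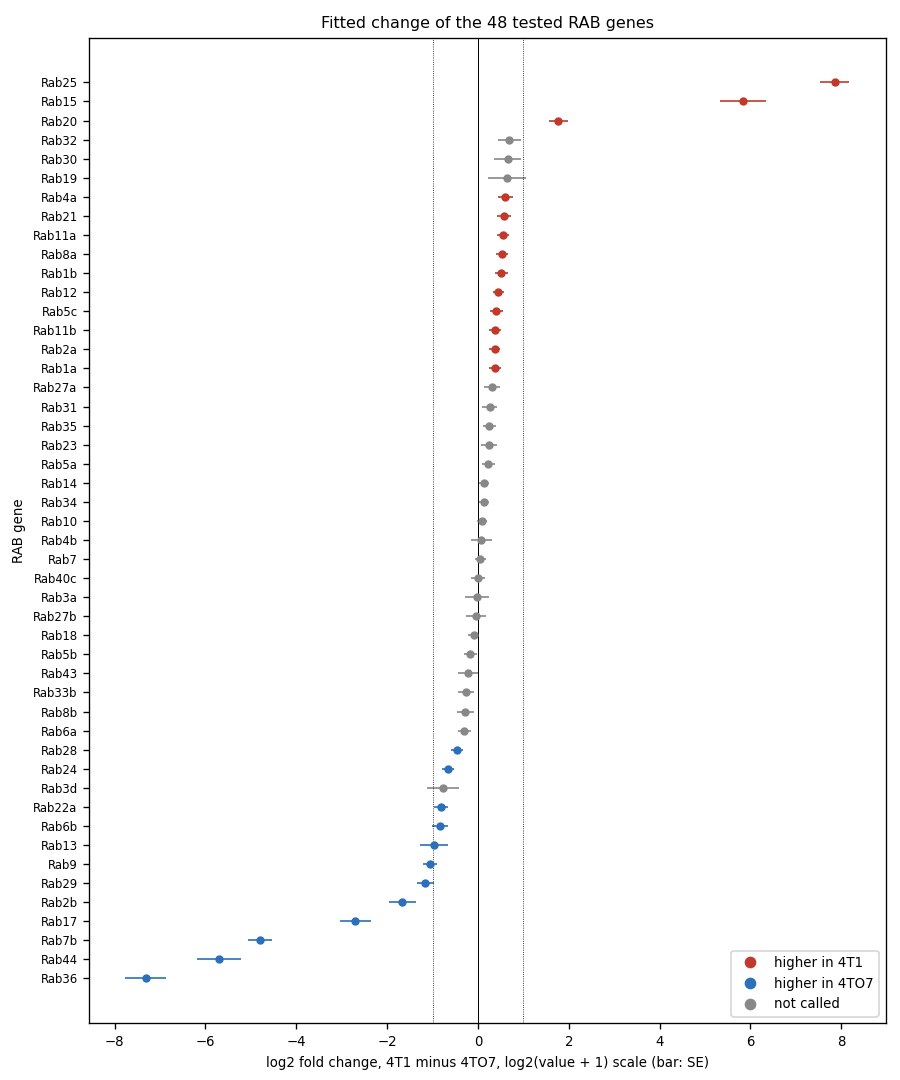
Fitted log2 fold change (4T1 minus 4TO7, log2(value + 1) scale) with its standard error for the 48 tested RAB genes; red, higher in 4T1; blue, higher in 4TO7; grey, not passing the test; dotted lines, 2-fold. Rab25, Rab15 and Rab20 lie right of the dotted line and 7 genes lie left of it, Rab36 with 0 reads in 4T1.

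Among the RABs of recycling endosomes and delivery to the cell surface, 5 of 10 members were higher in 4T1, 2 were higher in 4TO7 and 3 did not pass, with a median log2 fold change of 0.31 against 0.03 over all genes. Rab25 and Rab15 are among these 5 and had to differ, having reached the filter through 4T1 alone. The count of every role is to be read against the 25.1% of all genes tested that were called higher in 4T1 and the 23.9% called higher in 4TO7. Rab25 and Rab17, which are both best known from polarised epithelium, differed in opposite directions. Rab25, the epithelial relative of Rab11 that recycles integrins and apical cargo (chr3:88542029-88548300, minus strand, GENCODE M21 on GRCm38, as for all gene positions here), had values of 1103, 967 and 1045 in 4T1 replicates 1 to 3, against 1.87, 5.24 and 3.98 in 4TO7 replicates 1 to 3. No library of one line came near the other, and the mean was 281-fold higher in 4T1 (log2 7.86 ± 0.32, adjusted p = 5.4e-07), with 11 reads in all in 4TO7. After a log2 fold change ± gives the standard error of the fit, and elsewhere the SD of 3 libraries. The other Rab11 genes, which are expressed in most cell types, were also higher in 4T1 but by far less. Rab11a measured 4606, 4769.6 and 4976 in 4T1, against 3530.0, 2915 and 3352 in 4TO7 (log2 0.55 ± 0.13, adjusted p = 0.00797). Rab11b measured 2685, 2397 and 2304 in 4T1, against 2003, 1858 and 1847 in 4TO7 (log2 0.37 ± 0.13, adjusted p = 0.0433). The Rab11b call was lost without 4TO7 replicate 2 (limma, adjusted p = 0.0584) and with equal totals (adjusted p = 0.175). The ranges of both genes were separate between the lines.

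Rab15, an endocytic recycling RAB known mainly from neural tissue (chr12:76797960-76822908, minus strand), had values of 146, 101 and 101 in 4T1 replicates 1 to 3, against 0, 3.14 and 0.995 in 4TO7 replicates 1 to 3. It was detected in every 4T1 library and in 4TO7 by 4 reads in all, against 351 in 4T1. The ratio of summed reads, each sum divided by the summed size factors of its line, was 87.7 with an exact 95% counting interval of 33.9 to 324 (log2 5.83 ± 0.51, adjusted p = 4.01e-05), which covers counting error only. With a pseudocount of 5 in place of 1 the log2 fold change was 4.26 for Rab15 and 6.92 for Rab25, since values this low weigh on the log scale. Rab17, which serves transcytosis and recycling in epithelial cells (chr1:90958133-90969661, minus strand), had values of 52.5, 59.8 and 112 in 4T1 replicates 1 to 3, against 520.2, 339.6 and 565 in 4TO7 replicates 1 to 3. All 3 4TO7 libraries lay above all 4T1 libraries, and the mean was 6.36-fold higher in 4TO7 (log2 -2.70 ± 0.34, adjusted p = 0.000327). The epithelial markers were lower in 4TO7 in all 6 cases, so Rab25 lay with them and Rab17 against them. Their part in these results was not tested.

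Among the other surface-delivery members, Rab8a, which drives polarised exocytosis, was higher in 4T1 with 3969 ± 348 in 4T1 and 2746 ± 28.2 in 4TO7 (log2 0.53, adjusted p = 0.00862). Rab8b averaged 2461 ± 559 in 4T1 and 2933 ± 181 in 4TO7, which did not reach the threshold (adjusted p = 0.239). Rab13, which carries cargo to tight junctions, averaged 458 ± 97.7 in 4T1 and 925 ± 334 in 4TO7 (log2 -0.96, adjusted p = 0.0318). It was the 1 called member whose lines overlapped: 4TO7 replicate 2 held 539.7, below the highest 4T1 library at 556. Without that library the log2 fold change was -1.31, adjusted p = 0.000725. Rab10, of glucose transporter delivery, and Rab35, of recycling at the plasma membrane, overlapped between the lines and did not pass.

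The 250 bases before the RefSeq start of Rab25, Rab17 and Rab11a are shown because Rab25 and Rab17 had the most unequal levels of the epithelial members and Rab11a is the widely expressed relative of Rab25. They are written 5′ to 3′ on the coding strand from RefSeq (GRCm38.p6), with the E-box CACCTG, or CAGGTG where it lies on the other strand, in capitals. This E-box is the sequence that the Snail and Zeb repressors are known to bind.
Rab25: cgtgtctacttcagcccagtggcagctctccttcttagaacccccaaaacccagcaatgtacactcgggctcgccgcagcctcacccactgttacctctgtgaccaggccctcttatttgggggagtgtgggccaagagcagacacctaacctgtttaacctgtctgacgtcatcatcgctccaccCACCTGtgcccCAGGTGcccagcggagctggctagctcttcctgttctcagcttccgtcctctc
Rab17: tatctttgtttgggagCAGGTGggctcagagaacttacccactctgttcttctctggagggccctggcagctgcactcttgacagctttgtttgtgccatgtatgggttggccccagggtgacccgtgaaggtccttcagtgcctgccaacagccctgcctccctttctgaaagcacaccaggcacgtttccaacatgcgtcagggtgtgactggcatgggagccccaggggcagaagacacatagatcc
Rab11a: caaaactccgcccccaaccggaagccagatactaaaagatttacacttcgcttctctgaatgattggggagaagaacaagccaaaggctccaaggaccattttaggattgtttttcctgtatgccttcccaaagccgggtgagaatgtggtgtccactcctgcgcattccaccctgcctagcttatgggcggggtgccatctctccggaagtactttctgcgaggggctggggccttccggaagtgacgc
The windows lie at chr3:88548280-88548529, minus strand for Rab25, chr1:90967668-90967917, minus strand for Rab17 and chr9:64737757-64738006, minus strand for Rab11a. The Rab17 window lies within the GENCODE gene body, whose minus-strand start is at 90969661. The RefSeq start of Rab17 is thus inside that body, and its window need not precede the start of the measured transcripts. The Rab25 sequence holds 2 copies, which begin 64 and 53 bases before the start, and 8 CpG dinucleotides. The Rab17 sequence holds 1 copy, which begins 234 bases before the start, and 3 CpGs, while the Rab11a sequence holds none and has 10 CpGs. Of the 48 members with a RefSeq promoter used here, 7 held the E-box at their first start site and 9 at any of their start sites. Over all 60 windows of these members 15% held it, against 17.3% of all 32536 promoter windows. RAB windows held more CpG, with a median of 15 each against 6 over all promoter windows. A match describes these letters only.

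Among the RABs of late endosomes, lysosomes and autophagy, 1 of 5 tested members was higher in 4T1, 3 were higher in 4TO7 and 1 did not pass, with a median log2 fold change of -0.67 against 0.03 over all genes. Rab7b, which directs traffic between late endosomes and the trans-Golgi network (chr1:131688695-131715439, plus strand), had values of 38.3, 34.9 and 39.6 in 4T1 replicates 1 to 3, against 850.4, 949.5 and 1561 in 4TO7 replicates 1 to 3. The lowest 4TO7 library lay far above the highest 4T1 library, and the mean was 29.8-fold higher in 4TO7 (log2 -4.81 ± 0.26, adjusted p = 2.67e-06). Rab7, the main RAB of late endosome and lysosome fusion, measured 9014, 9396 and 8259.8 in 4T1, against 7896, 9616 and 8191 in 4TO7. Its libraries overlapped and it did not pass (log2 0.06 ± 0.13, adjusted p = 0.745). Rab9, which returns mannose 6-phosphate receptors from late endosomes to the Golgi (chrX:166457253-166479867, minus strand), had values of 1182, 982 and 1271 in 4T1 replicates 1 to 3, against 2336, 2253 and 2511 in 4TO7 replicates 1 to 3. The lines were separate and the mean was 2.07-fold higher in 4TO7 (log2 -1.05 ± 0.15, adjusted p = 0.00061), and its relative Rab9b had 0 reads in all 6 libraries. Rab24, linked to autophagosome clearance, averaged 1396 ± 136 in 4T1 and 2213 ± 65.8 in 4TO7 (log2 -0.67, adjusted p = 0.00392), and 62.4% of its exon bases lie opposite those of Prelid1, whose log2 fold change was 0.17 (adjusted p = 0.29). The strand setting of the counting is unknown here, so reads from such shared stretches cannot be assigned to either gene. Rab12, which steers transferrin receptor to lysosomes, was higher in 4T1 with 3728 ± 158 in 4T1 and 2734 ± 104 in 4TO7 (log2 0.45, adjusted p = 0.0148). The Rab12 call did not hold with equal totals (limma, adjusted p = 0.0533).

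Among the RABs linked to lysosome-related organelles, 2 of 3 tested members were higher in 4TO7. Rab44 is 1 of these and had to differ, having reached the filter through 4TO7 alone. Rab44, a large RAB with calcium-binding EF hands that in mouse is known from granules of mast cells (chr17:29114145-29148980, plus strand), had values of 2.02, 4.98 and 0.965 in 4T1 replicates 1 to 3, against 176, 110.0 and 252 in 4TO7 replicates 1 to 3. There were 546 reads in 4TO7 against 8 in 4T1, a ratio of summed reads over summed size factors of 68.3 with a counting interval of 34.4 to 159 (log2 -5.70 ± 0.48, adjusted p = 3.17e-05, and -4.55 with a pseudocount of 5). The leukocyte markers summed to 0 to 1.05 in the 4TO7 libraries that held this RNA, with Cd3e and Adgre1 at 0 reads in all 6 libraries. Rab29, which recruits the kinase LRRK2 to Golgi and lysosome membranes (chr1:131867224-131872887, plus strand), had values of 147, 148 and 165 in 4T1 replicates 1 to 3, against 339, 318 and 379 in 4TO7 replicates 1 to 3. The lines did not overlap, and the mean was 2.25-fold higher in 4TO7 (log2 -1.16 ± 0.19, adjusted p = 0.00143). Rab32, known with its relative Rab38 from melanosomes, averaged 454 ± 131 in 4T1 and 274 ± 25.2 in 4TO7 and missed the threshold (log2 0.69, adjusted p = 0.0516), although its libraries did not overlap. Under 6 of 17 alternatives it was called higher in 4T1. Of the melanocyte markers, Tyr and Dct had 0 reads in all 6 libraries, Mlana had 1 read, and Pmel was higher in 4TO7 with 3.66 ± 2.34 in 4T1 and 21.2 ± 9.27 in 4TO7 (limma, log2 -2.35, adjusted p = 0.00668), having reached the filter through 4TO7 alone. Their part in the values of Rab32, Rab29 and Rab44 was not tested.

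Among the early endosome RABs, 4 of 10 members were higher in 4T1, 1 was higher in 4TO7 and 5 did not pass, with a median log2 fold change of 0.24. Rab20, which acts in phagosome and endosome maturation (chr8:11453518-11478710, minus strand), had values of 286, 221 and 229.8 in 4T1 replicates 1 to 3, against 75.8, 68.1 and 68.7 in 4TO7 replicates 1 to 3. The 3 4T1 libraries lay far above the 3 4TO7 libraries, and the mean was 3.46-fold higher in 4T1 (log2 1.77 ± 0.22, adjusted p = 0.000278). An antisense transcript covers 25.6% of the Rab20 exon bases, and its own value averaged 4.61 in 4T1 and 3.22 in 4TO7. Rab22a, which sorts cargo from early to recycling endosomes, was higher in 4TO7 with 3326 ± 555 in 4T1 and 5780.4 ± 89.6 in 4TO7 (log2 -0.81, adjusted p = 0.00285). Rab4a of fast recycling, Rab21 of integrin uptake and Rab5c of early endosome fusion were higher in 4T1 by 0.60, 0.57 and 0.41 on the log2 scale. With equal totals the adjusted p was 0.0546 for Rab4a and 0.137 for Rab5c, and without 4TO7 replicate 2 it was 0.0563 for Rab5c. Rab5a and Rab5b, the close relatives of Rab5c, did not pass.

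Among the endoplasmic reticulum and Golgi RABs, 3 of 11 tested members were higher in 4T1, 2 were higher in 4TO7 and 6 did not pass, with a median log2 fold change of -0.10. Rab2b, the minor relative of Rab2a at the Golgi (chr14:52261759-52279545, minus strand), had values of 135, 258 and 194 in 4T1 replicates 1 to 3, against 638, 445 and 763 in 4TO7 replicates 1 to 3. The lines were separate and the mean was 3.14-fold higher in 4TO7 (log2 -1.66 ± 0.29, adjusted p = 0.0022). Rab2a measured 9255, 9419 and 9902 in 4T1, against 7284, 7104 and 7745 in 4TO7. It ran the other way (log2 0.37 ± 0.12, adjusted p = 0.0285), but its call did not hold with equal totals (limma, adjusted p = 0.12). The transcript Gm43766 lies opposite 59.3% of the Rab2b exon bases and averaged 0.66 in 4T1 and 1.64 in 4TO7. Rab6b, the Golgi RAB best known from neurons, averaged 1041 ± 135 in 4T1 and 1852 ± 303 in 4TO7 (log2 -0.82, adjusted p = 0.00535), while the widely expressed Rab6a averaged 6384 ± 771 in 4T1 and 7834 ± 631 in 4TO7 without passing the test. Rab1a and Rab1b, which carry cargo out of the endoplasmic reticulum, were both higher in 4T1 by 0.37 and 0.52 on the log2 scale. Neither call held with equal totals (limma, adjusted p = 0.148 for Rab1a and 0.0575 for Rab1b). Rab18, which acts at the endoplasmic reticulum and lipid droplets, Rab19, Rab30, Rab33b and Rab43 did not pass either.

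Of the 4 tested RABs of regulated secretion 0 passed the test with limma, and 0 had an unadjusted p under 0.05. edgeR called 0 and DESeq2 called 1, which was Rab3d. Rab27a and Rab27b, which dock secretory granules and exosome-bearing bodies, averaged 432 ± 33.6 in 4T1 and 350.3 ± 49.4 in 4TO7 for Rab27a and 402 ± 91.9 in 4T1 and 409.8 ± 69.5 in 4TO7 for Rab27b. Rab3a, known from synaptic vesicles, averaged 193 ± 32.5 in 4T1 and 199 ± 53.5 in 4TO7. Rab3d, from exocrine granules, averaged 376 ± 115 in 4T1 and 669 ± 274 in 4TO7 (log2 -0.78, adjusted p = 0.0992). The 4TO7 libraries of Rab3d ranged from 375 in replicate 2 to 917 in replicate 3, so that the lines overlapped. Without replicate 2 Rab3d was called higher in 4TO7 (limma, log2 -1.15, adjusted p = 0.0051).

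Of the 3 RABs of the cilium, Rab28, known from photoreceptor cilia, was higher in 4TO7 with 2721 ± 216 in 4T1 and 3761 ± 445 in 4TO7 (log2 -0.46, adjusted p = 0.0249). Rab23, which restrains Hedgehog signalling, and Rab34, which acts in the early steps of cilium formation, did not pass. Among the remaining members, Rab36, which binds the RILP family of lysosome-motor adaptors (chr10:75037058-75054748, plus strand), was detected in 4TO7 alone, with values of 251, 78.6 and 199 in 4TO7 replicates 1 to 3 and 0 reads in all 3 4T1 libraries. Its 543 reads in 4TO7 were 181-fold higher than a floor of 3 reads over the 3 4T1 libraries (limma, adjusted p = 5.3e-06). The lower end of the exact 95% counting interval of the ratio was 147. Rab40c, a RAB joined to a ubiquitin ligase box, was among the most even, with 719 ± 84.6 in 4T1 and 718 ± 40.9 in 4TO7.

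The balance inside sets of close relatives was read from values per kb of exon. Of 17 such sets 11 had at least 2 tested members. In the Rab1 and Rab11 sets all tested members were called higher in 4T1, in the Rab2 pair the members were called in opposite directions, and 6 sets held called and uncalled members together. These are calls of the main fit. With equal totals Rab1a, Rab1b, Rab11b and Rab2a lost theirs, so the Rab1, Rab11 and Rab2 patterns did not hold. Rab25 made up 23.7 ± 1.24% in 4T1 and 0.162 ± 0.0853% in 4TO7 of the Rab11a, Rab11b and Rab25 total per kb. Rab7b made up 0.239 ± 0.0303% in 4T1 and 6.91 ± 2.44% in 4TO7 of the Rab7 and Rab7b total. Rab2b made up 1.04 ± 0.323% in 4T1 and 4.07 ± 0.869% in 4TO7 of its pair. The share of Rab8b in the Rab8 pair was 37.8 ± 7.41% in 4T1 and 51.3 ± 1.57% in 4TO7, where Rab8a alone was called. Rab11a, Rab7, Rab2a and Rab8a themselves differed by less than 1.5-fold. Some members share sequence with other genes: 10 members had over 10% of their 50-base transcript stretches, read on either strand, in another gene. The largest partner was a pseudogene for Rab11b and Rab7 and an overlapping gene for the others. Among these are Rab43 and Rab4b, whose exons lie largely within those of the genes Gm45140 and Gm21983. The values of the 10 members are uncertain to that extent.

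**Figure D3:**
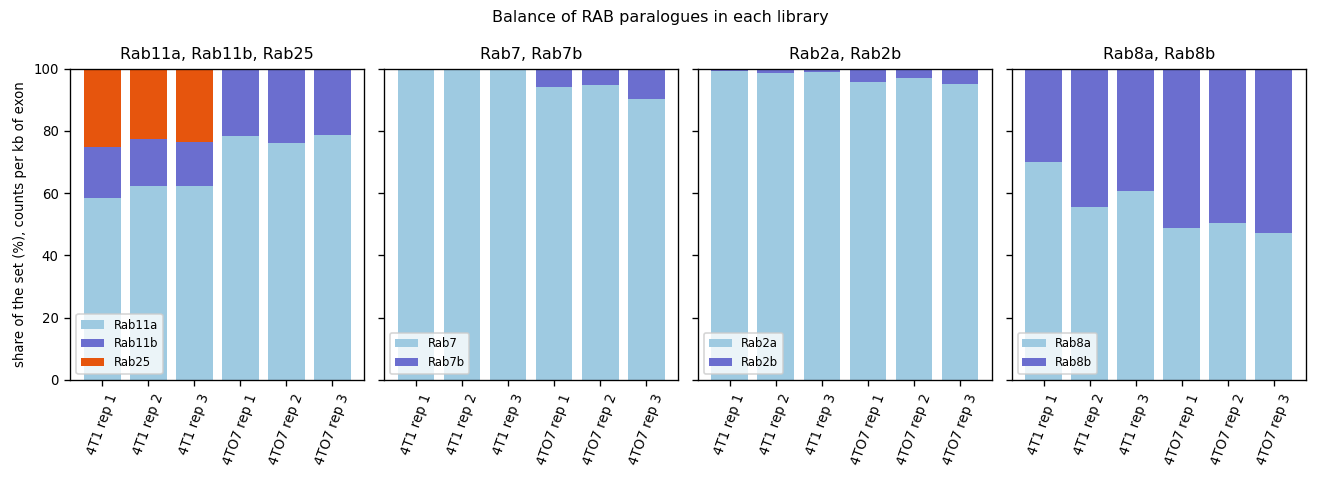
Share (%) of each member in the total of its set, from normalised counts per kb of exon, in each of the 6 libraries, 4T1 left of 4TO7. Rab25 makes up 22.6 to 25.0% of its set in 4T1 and at most 0.245% in 4TO7, and Rab7b and Rab2b take larger shares in 4TO7.

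The machinery around the RABs was read from 5 lists with 130 genes, of which 117 were tested, 32 were higher in 4T1 and 29 were higher in 4TO7. This was 52.1% called, near the 49.0% of all genes, with a median log2 fold change of -0.07 against 0.03. Calls in 4TO7 fell to 17 without 4TO7 replicate 1 and to 19 without 4TO7 replicate 3. For prenylation, escort and membrane extraction, 4 of 7 genes were called in 4T1 and 2 in 4TO7 (median log2 0.57). Rabggta and Rabggtb, the subunits of the geranylgeranyl transferase, were both higher in 4T1, Rabggta with 1127 ± 119 in 4T1 and 376 ± 35.1 in 4TO7 (log2 1.58, adjusted p = 0.000103) and Rabggtb with 5368 ± 399.8 in 4T1 and 3113 ± 108 in 4TO7 (log2 0.78, adjusted p = 0.00114). The escort gene Chml was higher in 4T1 with 1750.1 ± 402 in 4T1 and 798 ± 133 in 4TO7 (log2 1.12, adjusted p = 0.00321). Gdi2, a GDP dissociation inhibitor chosen after its values were seen, was higher in 4T1 with 20978 ± 839 in 4T1 and 14210.1 ± 1317 in 4TO7.

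Among the exchange factors, 8 of 31 tested genes were higher in 4T1 and 4 were higher in 4TO7 (median log2 0.05). The Rab5 exchange factors Rin3 and Rin2 lay in opposite directions. Rin3 averaged 2126 ± 120.1 in 4T1 and 326 ± 54.4 in 4TO7 (log2 2.72, adjusted p = 5.95e-06), and Rin2 averaged 4387 ± 817 in 4T1 and 15482 ± 5292 in 4TO7 (log2 -1.77, adjusted p = 0.00107). Dennd2a and Dennd2d, of the DENN family, were higher in 4T1 by 1.99 and 1.74 on the log2 scale. For Dennd2d the log2 fold change was 1.03 without 4TO7 replicate 2, and its call was lost without any 1 of the 4T1 libraries (adjusted p up to 0.0799). Among the GTPase-activating proteins, 8 of 40 genes were higher in 4T1 and 11 were higher in 4TO7 (median log2 -0.26). Tbc1d2, which acts on Rab7, averaged 631 ± 141 in 4T1 and 54.2 ± 19.4 in 4TO7 (log2 3.57, adjusted p = 5.18e-05). Tbc1d8 was also higher in 4T1, whereas its relative Tbc1d8b and Tbc1d24 were higher in 4TO7, with log2 fold changes of 2.63, -1.61 and -1.44.

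Among the effectors, 10 of 36 tested genes were higher in 4T1 and 12 were higher in 4TO7 (median log2 -0.18). In the 5 lists, Myo5b, Grtp1 and Tbc1d9 reached the filter through 4T1 alone and Sytl1 through 4TO7 alone, so these 4 had to differ. Myo5b, the myosin motor that moves Rab11 and Rab25 recycling endosomes, had 1109, 1449 and 1651 in 4T1 replicates 1 to 3, against 0.936, 3.14 and 0.995 in 4TO7 replicates 1 to 3 (log2 9.10 ± 0.36, adjusted p = 4.19e-07, and 7.71 with a pseudocount of 5). Myo5c, the related epithelial motor, had 906, 1268 and 1114 in 4T1, against 21.5, 8.38 and 25.9 in 4TO7 (log2 5.93 ± 0.39, adjusted p = 8.09e-06). Both motors thus lay at or below 25.9 in every 4TO7 library, where Rab25 was also near 0. The Rab11 family interacting proteins split: Rab11fip4 was higher in 4TO7 with 334, 430.4 and 350.4 in 4T1, against 3462, 3102 and 4546 in 4TO7 (log2 -3.30 ± 0.19, adjusted p = 3.24e-06). Sytl1, an effector of Rab27 known from secretory granules, averaged 6.28 ± 2.33 in 4T1 and 159 ± 129 in 4TO7 (log2 -3.96, adjusted p = 0.00359), with 4TO7 replicate 2 at 26.2 and the other 4TO7 libraries at 168 and 284. Without 4TO7 replicate 2 its log2 fold change was -4.96, and without 4TO7 replicate 3 it was -3.27. Chosen after their values were seen, Rab11fip5 and Rab11fip1 were higher in 4T1 (log2 1.67 and 1.15), Rab11fip2 was higher in 4TO7 (log2 -2.36) and Rab11fip3 did not pass (adjusted p = 0.0515). Lrrk2, the kinase that phosphorylates a group of RABs and is recruited by Rab29, had 735, 937 and 1074 in 4T1, against 26.2, 14.7 and 37.8 in 4TO7 (log2 5.15 ± 0.35, adjusted p = 8.69e-06). It lay opposite to Rab29, which was higher in 4TO7. The related Lrrk1 was higher in 4T1 with 6487 ± 626 in 4T1 and 3510.1 ± 233 in 4TO7, and the RAB phosphatase Ppm1h did not pass.

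**Figure D4:**
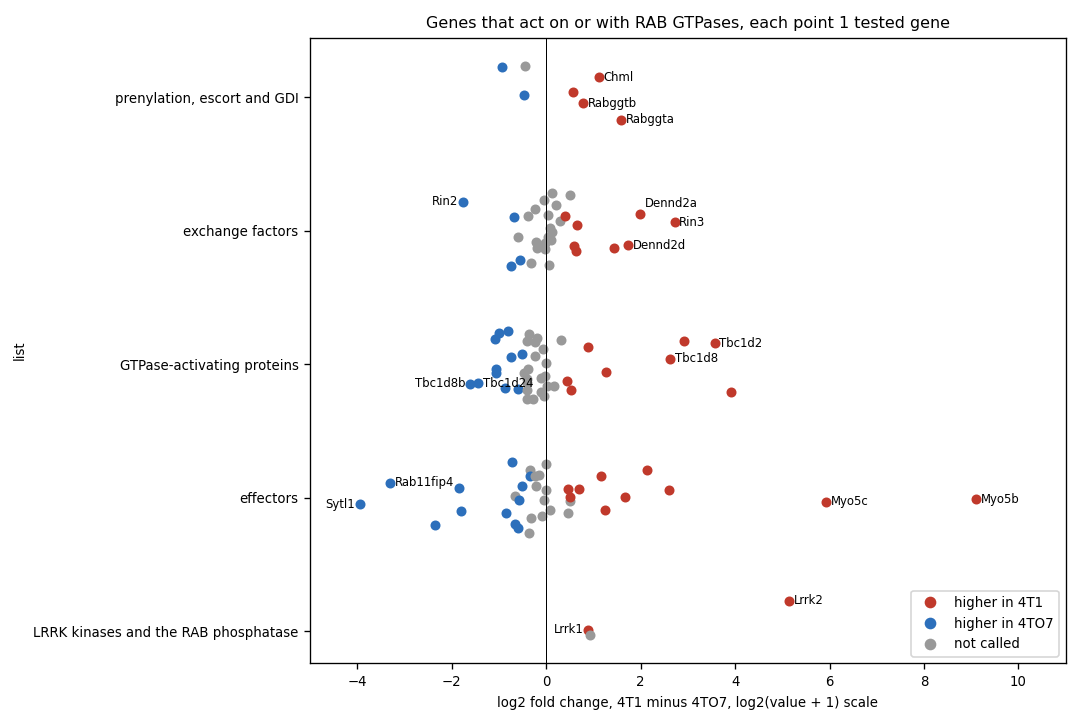
Fitted log2 fold change (4T1 minus 4TO7) of each of the 117 tested genes in 5 lists of genes that act on or with RAB proteins; red, higher in 4T1; blue, higher in 4TO7; grey, not passing the test; the genes named in the text by size of change are labelled. Every list but that of the LRRK kinases has called genes in both directions, with Myo5b at 9.10 and Sytl1 at -3.96 as the extremes.

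For the 10 members with a called change of at least 2-fold, the tested genes whose bodies lie within 200 kb were read from the same fit, and those named were chosen after their values were seen. Around Rab20, 6 of 7 neighbours were called higher in 4T1 as it was and none the other way, where 25.1% of all genes tested were called higher in 4T1 and 23.9% higher in 4TO7, among them the collagen genes Col4a1 and Col4a2, with Col4a1 at 21923 ± 1124 in 4T1 and 10148 ± 3974 in 4TO7 (log2 1.20). The Col4a2 call was lost without 4T1 replicate 1 or 2 (limma, adjusted p up to 0.0661). Around Rab25, 1 of 16 neighbours was called in its direction and 6 were called higher in 4TO7, and Lamtor2 and Ubqln4, whose start sites lie nearest to its own, did not pass. Around Rab9, 3 of 4 neighbours were called higher in 4TO7 with it, while Gpm6b was higher in 4T1 with 282 ± 56.9 in 4T1 and 0.349 ± 0.605 in 4TO7. Rab7b and Rab29 lie 179 kb apart on chromosome 1 and were both higher in 4TO7. Slc26a9, an anion transporter gene that lies between them, was higher in 4T1 with 133 ± 25.9 in 4T1 and 1.95 ± 1.99 in 4TO7, and Slc41a1, also between them, did not pass. Rab44, Rab36, Rab15, Rab17 and Rab2b had at most 1 neighbour each called in their own direction, of 2 to 10 tested. Some neighbours in these counts reached the filter through 1 line alone, so that they had to differ. Among them are Gpm6b and Slc26a9 through 4T1, and Sema4a near Rab25, Pi16 near Rab44 and Col6a3 near Rab17 through 4TO7.

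**Figure D5:**
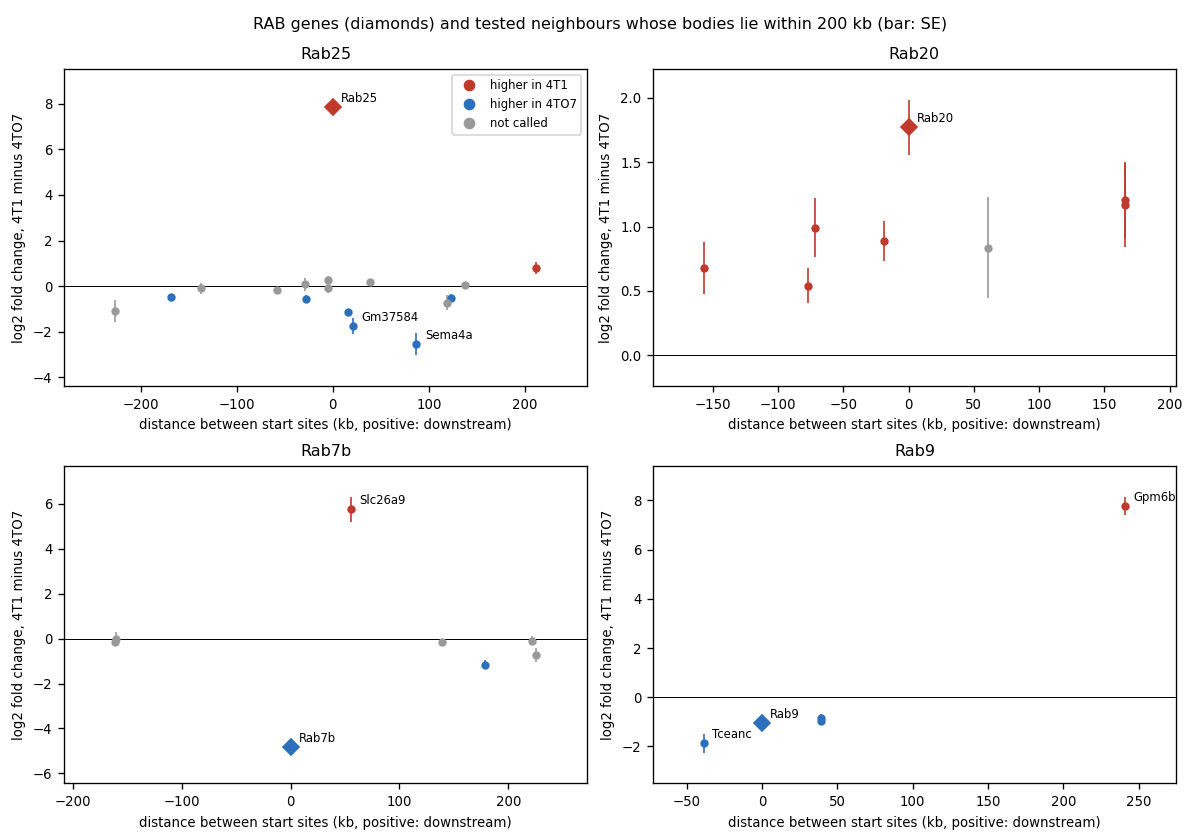
Fitted log2 fold change (4T1 minus 4TO7, bars are standard errors) of Rab25, Rab20, Rab7b and Rab9 (diamonds) and of the tested genes around them, by distance between start sites in kb. Rab20 lies among genes that are higher in 4T1, while the genes next to Rab25 lie near or below 0.

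In the authors' deposited table, whose fold changes run 4TO7 over 4T1, 13 members were called higher in 4T1 and 13 higher in 4TO7 at an adjusted p under 0.05. Of these 24 were called here in the same direction. The authors' deposited table alone called Rab32 and Rab3d, and Rab1a was called here alone.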

How the data were processed

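RNA from 3 libraries of each line was measured by RNA sequencing. Per the submitters' processing notes, STAR 2.5, featureCounts 1.5, DESeq2 and the GRCm38 build were used; the annotation release and the strand setting are not given in the sources used here. The authors deposited 1 table with a signal value per gene and library, their read count divided by 1 size factor per library, together with their own log2 fold changes, test score and p-values, per the file headers. Every value was a whole multiple of its library's step within 1e-06, so whole reads were recovered for all 6 libraries.

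Genes at 10 or more in 3 or more libraries (14276 of 47729) were tested on log2(value + 1) with limma 3.58.1 (trend and robust, group alone) in R 4.3.3, two-sided, with Benjamini-Hochberg adjustment over all of them at 0.05. edgeR 4.0.16 and DESeq2 1.42.0 on the recovered reads were alternatives, beside other pseudocounts, filters, scalings and variance models, a replicate block and leaving out each library. The fit was tested on simulated data. Counting intervals are exact at 95%, the floor is 3 reads, and both cover counting error only. All pairs of replicate libraries differed by more than sampling noise. Gene positions, exon lengths and overlaps come from GENCODE M21, promoters from RefSeq.

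Values in every library are given for members called with a fitted change of at least 2-fold and averaging 100 or more in the higher line, and for their close relatives. Up to 4 genes of each pathway list are named by size of change with the same minimum, and others were chosen after their values were seen. 1 gene that this rule names and 1 marker are not reported here. The members, roles and lists were chosen with earlier results of these data known.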

Additional observations from a re-analysis of the deposited data

How the results depend on the processing

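Of the members' results under the 17 alternatives, 741 kept their side of the threshold, 61 lost a call and 14 gained one. No result with a call in either fit changed direction. Members without a call could change sign within the 741, as Rab10 did, which ranged from -0.07 to 0.15 on the log2 scale. With equal totals 6 RAB genes were called higher in 4T1, and the cause was not tested. Leaving out each library gave 6 to 14 RAB genes higher in 4T1 and 10 to 13 higher in 4TO7, and 25 to 33 and 17 to 32 pathway genes. Over all genes it gave 2751 to 4162 higher in 4T1 and 2491 to 3902 higher in 4TO7. With edgeR 11 RAB genes were called in 4T1 and 12 in 4TO7, and with DESeq2 14 and 13. The groups share replicate numbers, and same-numbered libraries deviated together with r of -0.01, 0.27 and 0.33. Libraries with different numbers did so with r of -0.39 to 0.27. These values do not settle whether the numbers mark pairs. The labels state no pairing, so the main fit used group alone. With the replicate block 14 RAB genes were called in 4T1 and 13 in 4TO7, with 33 and 31 pathway genes and 3990 and 3760 of all genes. The 11 members that did not reach the filter were not tested in the main fit, so nothing is said of a difference in them.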
